A study of Mus musculus with 8 samples.

Results

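Genes that carry many H3K9me3 peaks were compared between colon crypts of *Smarcad1*-KO and WT mice, to ask whether such genes in general gain the mark when *Smarcad1* is lost. The members are the 111 genes on chromosomes 1 to 19 that have at least 15 peaks each, and they hold 4571 of the 53761 peaks in the deposited table. They were selected on the number of peaks, and peaks had been called once on all ChIP libraries together, so peak number is a description here and was given no test. By the same rule 6 genes with 223 peaks were left out by name (*Grip1*, *Wwox*, *Tcf4*, *Cdyl2*, *Wwc2* and *1700106N22Rik*), and these were known from earlier results of these data to gain H3K9me3. A further 8 genes with 221 peaks were left out because their names begin with Zfp, Vmn or Gm followed by a number or a family name. Another 6 names of small noncoding RNAs, which reach 15 peaks only by adding up several gene identifiers (351 peaks), were set apart.

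The samples were whole crypt isolates from the colon of male C57BL/6 mice. KO mice carried a floxed *Smarcad1* gene cut by a Vil-Cre transgene, which is driven in the epithelium of the intestine, so non-epithelial cells in an isolate would keep the gene, and WT mice were the controls. There were 3 ChIP libraries and 1 input library for each genotype, and the inputs, DNA from chromatin taken before the immunoprecipitation, were not replicated. The labels give no age, and p-values measure the spread between these 3 libraries per genotype. No peak is assigned to *Smarcad1* itself, and a H3K9me3 table holds no expression, so neither the deletion nor the cell type could be checked in these values. Each value averages over the cells of an isolate, so a shift in the mix of cells and a shift of the mark within a cell cannot be told apart.

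H3K9me3 is trimethylation of lysine 9 on histone H3, a mark of silent chromatin that is read by HP1 proteins and spreads over repeats and inactive genes. *Smarcad1* is a chromatin remodeller of the SNF2 family known for its part in keeping H3K9me3 as DNA is replicated. Many of the longest genes in the mouse code for adhesion and synapse proteins of neurons, and such genes are usually silent in the intestinal epithelium.

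A peak was called when limma, fitted on all 53761 peaks, gave KO against WT a p under 0.05 after Benjamini-Hochberg adjustment. Of the called peaks that kept their call in at least 4 of the 6 fits that each left out 1 library, 6 are shown by their reference sequence, as the places where the calls at these peak-rich genes lie, and the 2 peaks of *Ccdc11* that also kept their call this often are described further on without it. Each run is 300 bases of GRCm38, plus strand, 5′ to 3′, taken at the centre of the peak or at the nearest stretch of the peak without an exon in GENCODE vM21. Capitals mark bases outside the repeat mask of the reference, and lower case marks masked repeats.

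C130026I21Rik peak higher in KO, chr1:85199251-85199550: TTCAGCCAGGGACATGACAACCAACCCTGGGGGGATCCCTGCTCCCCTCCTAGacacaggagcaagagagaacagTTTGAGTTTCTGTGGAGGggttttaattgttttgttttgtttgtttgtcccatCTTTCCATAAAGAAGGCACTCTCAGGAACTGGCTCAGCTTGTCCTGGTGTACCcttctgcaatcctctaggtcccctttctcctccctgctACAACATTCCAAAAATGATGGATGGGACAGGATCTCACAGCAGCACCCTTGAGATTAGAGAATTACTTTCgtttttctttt
Epha6 peak higher in KO, chr16:60516451-60516750: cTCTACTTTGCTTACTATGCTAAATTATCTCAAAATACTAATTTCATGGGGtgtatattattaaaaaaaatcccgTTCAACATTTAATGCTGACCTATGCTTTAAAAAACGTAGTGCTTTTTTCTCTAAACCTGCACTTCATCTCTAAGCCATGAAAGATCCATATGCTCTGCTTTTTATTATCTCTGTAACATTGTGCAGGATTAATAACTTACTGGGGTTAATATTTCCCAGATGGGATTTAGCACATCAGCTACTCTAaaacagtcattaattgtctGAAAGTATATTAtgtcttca
Cdh8 peak higher in KO, chr8:99415782-99416081: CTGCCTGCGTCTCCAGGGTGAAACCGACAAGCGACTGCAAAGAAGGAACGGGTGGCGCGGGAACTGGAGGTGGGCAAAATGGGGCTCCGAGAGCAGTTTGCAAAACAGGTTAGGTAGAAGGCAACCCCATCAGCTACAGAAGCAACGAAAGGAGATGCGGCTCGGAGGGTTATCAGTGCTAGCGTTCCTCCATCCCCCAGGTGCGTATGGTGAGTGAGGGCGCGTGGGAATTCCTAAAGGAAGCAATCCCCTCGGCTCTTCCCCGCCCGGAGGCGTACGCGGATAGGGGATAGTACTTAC
Smyd3 peak higher in KO, chr1:179427751-179428050: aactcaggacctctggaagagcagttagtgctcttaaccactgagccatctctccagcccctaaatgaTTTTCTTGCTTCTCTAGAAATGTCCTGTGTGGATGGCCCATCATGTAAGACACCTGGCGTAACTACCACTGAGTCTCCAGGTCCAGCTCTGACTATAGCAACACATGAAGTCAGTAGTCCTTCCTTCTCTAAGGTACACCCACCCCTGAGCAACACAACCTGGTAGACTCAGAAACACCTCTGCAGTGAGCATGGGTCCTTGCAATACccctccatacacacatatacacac
Smyd3 peak lower in KO, chr1:179268451-179268750: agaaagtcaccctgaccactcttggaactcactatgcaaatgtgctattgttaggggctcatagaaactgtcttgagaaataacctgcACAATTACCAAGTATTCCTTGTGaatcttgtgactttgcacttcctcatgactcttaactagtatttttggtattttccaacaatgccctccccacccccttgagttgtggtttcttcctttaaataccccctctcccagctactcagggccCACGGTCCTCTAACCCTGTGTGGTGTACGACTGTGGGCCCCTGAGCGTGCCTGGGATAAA
Arfip1 peak lower in KO, chr3:85869549-85869848: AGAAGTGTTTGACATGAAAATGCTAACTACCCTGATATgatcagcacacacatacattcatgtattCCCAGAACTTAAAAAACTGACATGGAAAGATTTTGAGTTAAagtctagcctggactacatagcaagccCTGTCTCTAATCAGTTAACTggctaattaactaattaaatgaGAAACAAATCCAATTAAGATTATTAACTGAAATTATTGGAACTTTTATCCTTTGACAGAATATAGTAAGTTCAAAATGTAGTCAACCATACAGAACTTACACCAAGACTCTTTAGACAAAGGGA

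The *Cdh8* run differs from the others in its bases: it is 58.3% G or C, holds 20 CpG pairs and has no masked base, and its peak spans the annotated start of *Cdh8*. The other 5 runs hold 0 to 3 CpG pairs. The run of the *Smyd3* peak that was lower in KO is mostly repeat, with 217 of 300 bases masked, and that of the *Smyd3* peak that was higher in KO has 92. The *Epha6*, *Smyd3* and *C130026I21Rik* runs lie in introns of these genes, and a pseudogene, *Gm2619*, overlaps the last. A second annotated gene, *Gm15680*, overlaps the *Cdh8* run. The *Arfip1* run lies outside the GENCODE vM21 model of *Arfip1* and inside *Gm37240*, a longer overlapping gene, next to the annotated end of *Glt28d2*.

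Few peaks of the peak-rich genes were called, which does not show that the others did not change. Of the 4571 member peaks, 15 were called (0.328%), against 1.66% of all peaks. In 8 of them H3K9me3 rose in KO (0.175%, against 0.796% of all peaks) and in 7 it fell (0.153%, against 0.863%). The 6 genes left out by name had 168 of 223 peaks called, 167 of them upwards, so the members are peak-rich genes from which the strongest known gains had been removed. With those 6 genes put back, 175 peaks would be called upwards and 8 downwards among 4794. The median log2 fold change of KO over WT was 0.09 over the member peaks, with quartiles of -0.13 and 0.30, and 1.41 over the 223 peaks left out.

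**Figure D1:**
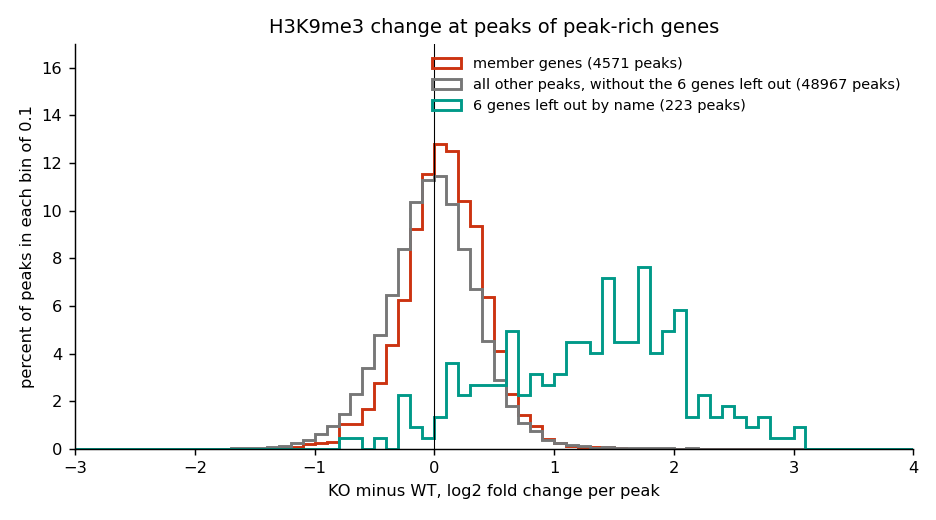
Distribution of the log2 fold change (KO minus WT, x axis) over peaks, as the percent of each group's peaks in bins of 0.1 (y axis), for the member genes, all other peaks and the 6 genes left out by name. The curve of the member genes lies slightly to the right of that of the other peaks, with medians of 0.09 and -0.01, while the left-out genes have a median of 1.41; values beyond the axis are placed in its last bin.

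More member peaks leaned towards KO than towards WT. The KO mean was above the WT mean at 2797 of 4571 member peaks (61.2%), against 50.3% of all peaks. The 3 KO values were each higher than every WT value at 411 member peaks (8.99%), where 7.2% of all peaks did so. They were each lower at 168 (3.68%), where 8.42% of all peaks did. At an unadjusted p under 0.05 there were 236 member peaks higher in KO and 98 lower, which is 7.31% of the member peaks in all against 10.6% of all peaks. Differences of at least 1 on the log2 scale were seen at 28 member peaks upwards and 16 downwards (0.613% and 0.35%), against 1.06% and 0.91% of all peaks.

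The lean was also seen library by library. Averaged over the member peaks, the matched log2 read count was 4.06, 4.02 and 4.05 in WT replicates 1, 2 and 3 and 4.12, 4.08 and 4.18 in KO replicates 1, 2 and 3. The genotypes did not overlap, and the means were 4.04 ± 0.02 in WT and 4.13 ± 0.05 in KO (SD, n = 3). The lowest KO library stood 0.02 above the highest WT library. Peaks with no gene within 5 kb had means of 4.08 ± 0.003 in WT and 4.08 ± 0.008 in KO. The authors matched the distributions of the 6 libraries, which makes the mean over all peaks equal by construction (4.16 in each), so a difference at the members is relative to the other peaks and a change of equal size everywhere could not be seen. Without KO replicate 3, the library with the highest member mean, the median log2 fold change was 0.06, and without KO replicate 2 it was 0.12.

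Gene means showed the same lean, with no gene called. The mean log2 value over a gene's peaks was higher in KO than in WT for 90 of the 111 members, or 81.1%, where it was higher for 36.9% of all 5543 gene names with a peak. For 26 members (23.4%) the lowest KO value exceeded the highest WT value, which held for 6.37% of all gene names, and for 6 members (5.41%) the highest KO value was under the lowest WT value, which held for 18.7%. The limma fit on gene means called 0 members, against 3.86% of all gene names. At an unadjusted p under 0.05 it had 1 member, *Ccdc11* (0.901% of the members, against 19.8% of all gene names). The median difference over the members was 0.08, the range was -0.52 to 0.32, and 97 of the 111 lay within 0.2 of 0. In 88 members more than 50% of the peaks were higher in KO.

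The gene-mean fit took its expected variance from all gene names, of which most have a single peak, and gave the members a median SE of 0.18, while the median SD between libraries of one genotype was 0.08. A fit whose expected variance followed the number of peaks, added after the values were seen, gave a median SE of 0.07. It called 1 member, *Ccdc11*, downwards, against 1.82% of all gene names. It had 23 members at an unadjusted p under 0.05 (20.7%, against 19% of all gene names), 19 of them higher in KO and 4 lower.

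**Figure D2:**
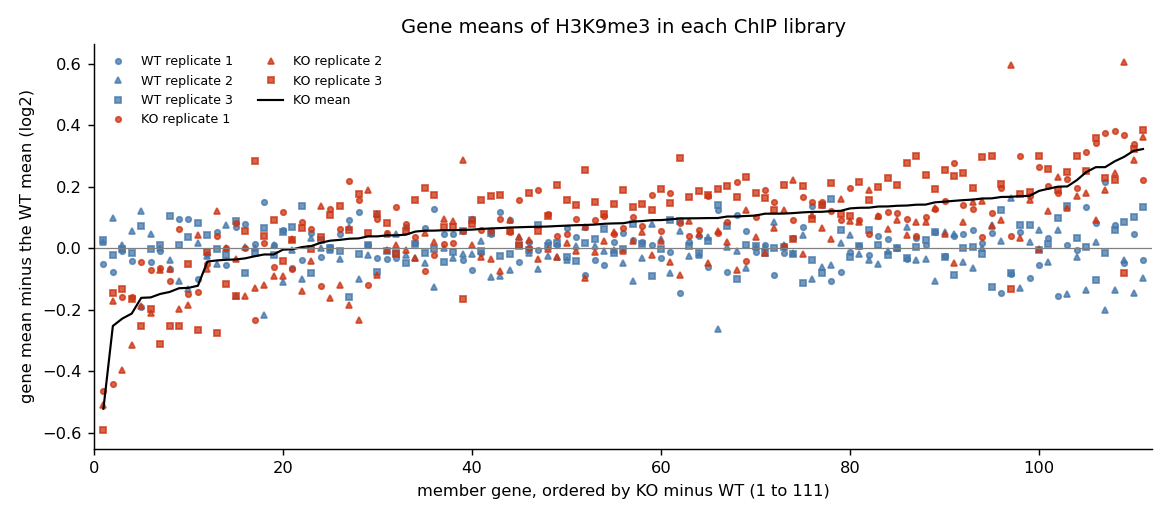
Mean matched log2 read count over each member gene's peaks minus the mean of the WT libraries (y axis), for the 111 member genes in order of KO minus WT (x axis). Blue marks are WT libraries, red marks are KO libraries and the line is the KO mean; 90 genes lie above 0 and 21 below, and *Ccdc11* stands alone at the left end at -0.52.

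The 10 members with the most peaks all had a higher mean in KO, by 0.07 to 0.16. *Csmd1*, which codes for a large membrane protein with complement control domains, had 202 peaks over 1643 kb, and its gene mean was 4.19, 4.10 and 4.14 in WT and 4.28, 4.23 and 4.39 in KO. Each KO value of *Csmd1* exceeded every WT value, with a difference of 0.16 ± 0.16 (SE, adjusted p = 0.664, limma), and 139 of its 202 peaks were higher in KO. *Odz3*, now named *Tenm3*, a teneurin that guides neuron wiring, had 95 peaks with 4.89, 4.76 and 4.83 in WT and 4.95, 4.98 and 5.02 in KO. The values of *Odz3* did not overlap either, and 75 of its 95 peaks were higher in KO. Peaks covered 38.9% of *Odz3* but 8.69% of *Lrp1b*, a receptor of the LDL receptor family with 157 peaks over 2058 kb. *Lrp1b* had 3.92, 3.83 and 3.87 in WT and 3.94, 3.86 and 4.06 in KO, and its groups overlapped.

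Among the other 7 of these genes the values of KO and WT did not overlap for *Cdh18*, *Cntnap5a*, *Pcdh9* and *Lrrc4c*. *Cdh18* (125 peaks) and *Pcdh9* (112 peaks) code for a cadherin and a protocadherin, and their differences were 0.08 ± 0.17 and 0.13 ± 0.17. *Cntnap5a* (112 peaks), of the contactin-associated proteins, and *Lrrc4c* (105 peaks), a ligand of netrin G, had 0.10 ± 0.17 and 0.14 ± 0.18. *Pcdh15* (103 peaks), part of the tip link of hair cells, had 0.08 ± 0.18, *Cntn4* (95 peaks), a contactin, 0.11 ± 0.18, and *Nrg3* (93 peaks), a ligand of the ErbB4 receptor, 0.07 ± 0.19, each with overlapping groups (SE of the difference, n = 3 per genotype, none called).

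The highest gene means relative to WT were reached by genes with fewer peaks. *Arhgap28*, a GTPase-activating protein, had 17 peaks with a mean of 3.86, 3.80 and 4.04 in WT and 4.12, 4.26 and 4.28 in KO. *Elavl2*, an RNA-binding protein of neurons, had 18 peaks with 4.24, 4.04 and 4.29 in WT and 4.53, 4.48 and 4.51 in KO, and 16 of these peaks were higher in KO. For both genes the genotypes did not overlap and the difference was 0.32 (adjusted p = 0.358 and 0.318, limma). *Gpc6*, a glypican of the cell surface, followed the same pattern with 3.71, 3.49 and 3.69 in WT and 4.01, 3.88 and 3.85 in KO. *Gbe1*, the glycogen branching enzyme, had 4.56, 4.57 and 4.69 in WT and 4.97, 5.21 and 4.52 in KO, so its lowest KO library lay below every WT library. *Mmp16*, a membrane-bound metalloproteinase, had 3.87, 3.46 and 3.64 in WT and 4.03, 3.85 and 3.89 in KO, with WT replicate 1 above KO replicate 2.

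*Arhgap28* and *Elavl2* were called when the linear values of the peaks were summed before taking the log, as were *Pcdhac1* and *Pdzrn4*. In that sum wide peaks with many reads weigh more. The share of all gene names called with it is not given here, so these calls are not read as particular to the members. *Ccdc11* was called downwards there as well (adjusted p = 7.74e-05, limma). *Pcdhac1*, an alpha protocadherin, has an identifier that GENCODE vM21 names *Pcdha11*. Of its 15 peaks 10 lie outside that model. They lie in a cluster whose genes share exons, so the peaks of *Pcdhac1* cannot be given to a single gene.

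*Ccdc11* was the member with the lowest KO mean relative to WT. The gene, now named *Cfap53*, codes for a protein of motile cilia, is 76.9 kb long and lies on chromosome 18. Of its 16 peaks, the 15 that overlap its GENCODE vM21 model cover 45.5% of it, the highest share among the members. Its gene mean was 5.35, 5.42 and 5.43 in WT and 4.93, 4.89 and 4.80 in KO, with no overlap. The difference was -0.52 ± 0.14 (SE), with an adjusted p of 0.065 in the limma fit whose variance followed the level and 0.011 in the one whose variance followed peak number. The KO mean was below the WT mean at 15 of its 16 peaks, and 3 were called. The largest fall was at chr18:74345401-74346750 in an intron, from 4.80 ± 0.24 in WT to 3.61 ± 0.23 in KO (SD, n = 3), with 22, 29 and 39 reads in the WT libraries and 11, 10 and 15 in the KO libraries. The widest peak (9600 bp), which begins past the annotated end of the gene, fell from 8.08 ± 0.03 to 7.50 ± 0.16, and the third called peak, 3300 bp, fell from 5.88 ± 0.25 to 5.14 ± 0.18. The call of the widest peak held without each library in turn, that of the first was lost without WT replicate 3 (adjusted p = 0.134, limma), and that of the third was kept only without KO replicate 1 or WT replicate 3.

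*Smyd3*, which codes for a methyltransferase with SET and MYND domains, was the member whose called peaks went both ways. It is 566 kb long with 18 peaks, and its gene mean was 5.02 in WT and 4.98 in KO. At chr1:179266651-179270550 H3K9me3 was 6.69, 6.61 and 6.77 in WT and 5.77, 5.53 and 5.72 in KO, a fall by 1.02 ± 0.16 on the log2 scale (SE, adjusted p = 1.04e-05, limma). At chr1:179425201-179430600, on the side of the gene start, it was 6.20, 6.18 and 6.13 in WT and 7.05, 6.99 and 6.79 in KO, a rise of 0.77 ± 0.14 (adjusted p = 3.61e-04, limma). The values of KO and WT were well apart at both peaks, and both calls held in all 6 fits that left out 1 library. A further peak at chr1:179132251-179133900 fell by 0.77 ± 0.21, and this call was kept in 1 of the 6 fits, the one without KO replicate 1. The gene mean averaged these opposite differences and showed neither.

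**Figure D3:**
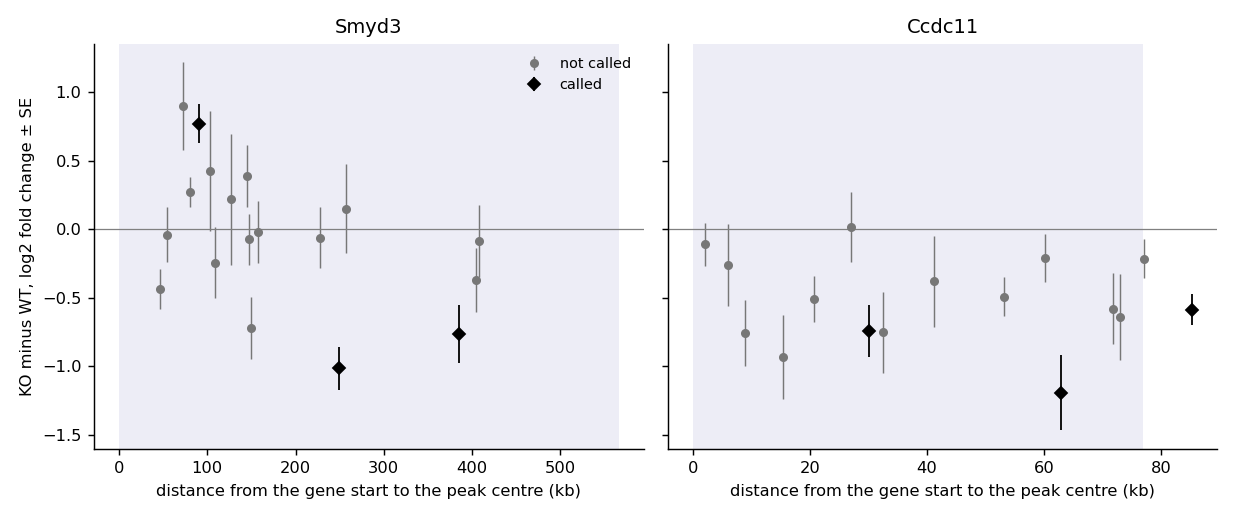
KO minus WT (log2 fold change ± SE, y axis) at every peak of *Smyd3* and *Ccdc11* against the distance of the peak centre from the annotated gene start (kb, x axis), with the gene shaded. Diamonds are called peaks and circles the others; *Smyd3* has a called rise of 0.77 on the side of its start and called falls of 1.02 and 0.77 further in, while 15 of 16 *Ccdc11* peaks lie below 0.

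The other called peaks were single peaks in genes with no other call. Upwards, *Cdh8*, a cadherin of synapses, had 4.57, 4.65 and 4.65 in WT and 5.56, 5.39 and 5.91 in KO at the peak over its start, a rise of 1.00 ± 0.21 (adjusted p = 0.00206, limma). *Epha6*, a receptor of ephrins, had 3.37, 3.19 and 2.79 in WT and 4.51, 4.60 and 4.35 in KO at an intronic peak of 900 bp with 8 to 10 reads per WT library and 19 to 24 per KO library. The *Cdh8* call held in all 6 fits that left out 1 library, and the *Epha6* call was lost without KO replicate 2 (adjusted p = 0.0627, limma) and without WT replicate 3 (0.0546). *C130026I21Rik* had 2.80, 2.87 and 2.96 in WT and 4.25, 4.20 and 4.66 in KO at 1 of its 47 peaks, which lie in a cluster of closely related genes where reads could be shared among copies, so its values are uncertain, and its call was lost without KO replicate 3 (adjusted p = 0.0885, limma).

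Rises were also called at 1 intronic peak each of *Nrxn3*, a neurexin of the presynapse (by 0.98 ± 0.26), *Pcdh9* (1.33 ± 0.33), *Csmd1* (1.38 ± 0.37) and *Rbfox1*, a splicing regulator (from 2.68 in WT to 4.11 in KO). These peaks were thin. *Rbfox1* had 7, 11 and 4 reads in the WT libraries and 11, 20 and 21 in the KO libraries, and *Csmd1* had 4, 9 and 9 against 12, 18 and 22. The lowest KO value was above the highest WT value in each of the 4, but they were called on these same values, and the calls were not steady. Those of *Pcdh9* and *Csmd1* were lost without KO replicate 2, KO replicate 3 or WT replicate 1, that of *Rbfox1* without KO replicate 2, KO replicate 3 or WT replicate 3, and that of *Nrxn3* was kept only without KO replicate 1, with adjusted p from 0.0556 to 0.347 (limma) in the fits that lost a call.

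Downwards, *Caln1*, a calcium-binding calneuron, fell at 1 of its 16 peaks from 5.07, 5.08 and 4.88 in WT to 4.16, 4.03 and 4.20 in KO, and this call was lost without any 1 of the 6 libraries. *Arfip1* codes for a protein that binds ARF GTPases at the Golgi. At 1 of the 21 peaks assigned to it, H3K9me3 fell from 6.45, 6.72 and 6.28 in WT to 5.87, 5.82 and 5.64 in KO (adjusted p = 0.00598, limma). This call was lost without WT replicate 2 (adjusted p = 0.145, limma). All 21 peaks deposited as overlapping *Arfip1* lie outside its GENCODE vM21 model. The model spans chr3:84496093-84582625 and the peaks lie within chr3:84605101-85871550, so this fall cannot be placed at *Arfip1*. At gene level, *Caln1* and *Arfip1* with *Ryr2*, the calcium release channel of heart muscle, *Fhit* and *Cntnap5b* were the members besides *Ccdc11* with all KO values below all WT values, by 0.15 to 0.25. *Mtus2*, a microtubule-associated protein that completes the 5 lowest, had 4.42, 4.73 and 4.68 in WT and 4.56, 4.42 and 4.36 in KO, which overlapped.

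**Figure D4:**
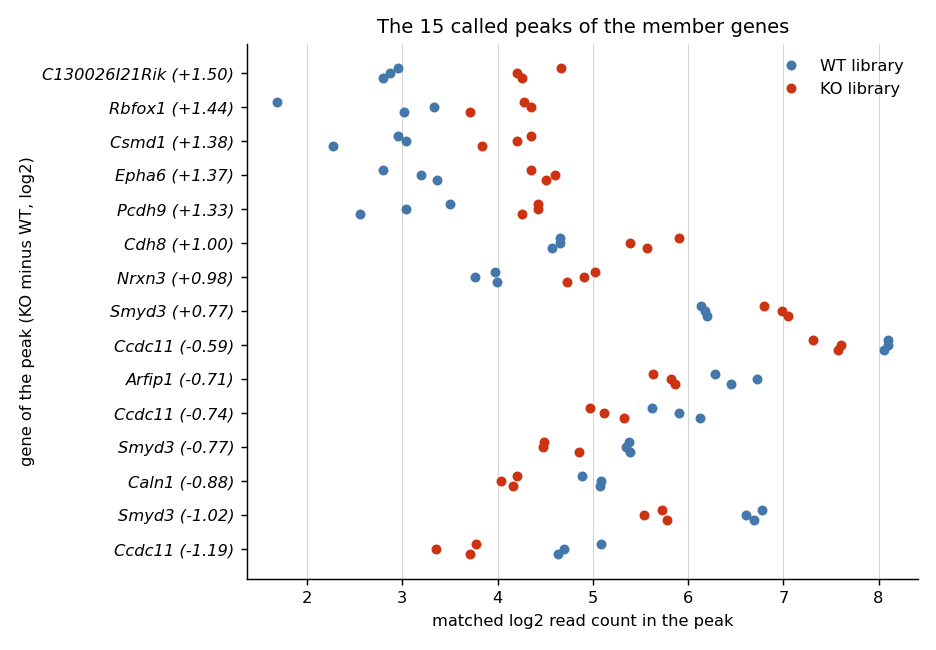
Matched log2 read count (x axis) in each WT library (blue) and KO library (red) at the 15 called peaks of the member genes, 1 row per peak with its gene and its KO minus WT difference in brackets. KO and WT values do not overlap at any of the 15 peaks, 8 of which rose and 7 of which fell. The peaks were chosen by their p on these same values, so this separation is no further support.

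The count of called peaks depended on single libraries and on the variance model. Without KO replicate 2 there were 3 called rises, and without the other libraries 6 to 9. Called falls numbered 3 without WT replicate 2, 4 without WT replicate 1 or 3, 5 without KO replicate 2 and 8 or 9 without KO replicate 3 or 1. A variance prior that did not follow the level left 1 rise and 0 falls. Calls over all peaks fell as well. They numbered 892 in the main fit and 570 to 805 when 1 library was left out. With the prior that did not follow the level they numbered 127 (0.236% of all peaks), of which 112 were rises. Depth was small: the libraries had medians between 14 and 19 reads on a member peak, and the counting error of such numbers is part of the spread between libraries. Of the 11 peaks that covered the annotated start of a member, 9 were higher in KO, with a median of 0.15, and the *Cdh8* peak was the 1 called.

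The members were grouped by what they code for, with lists drawn up when earlier results of these data were known. Adhesion and axon guidance genes made up 40 of the 111 members and 2455 of the peaks, with 5 peaks called upwards (*Cdh8*, *Csmd1*, *Epha6*, *Nrxn3* and *Pcdh9*) and 0 downwards. That is 0.204% of their peaks, against 1.66% of all peaks and 10 of 204 peaks (4.9%) at the 55 other genes of this list. For 38 of the 40 the gene mean was higher in KO, the exceptions being *Cntnap5b* and *Lrrtm4*, with a median difference of 0.10, while 27 of the 55 other genes were higher, with a median of -0.01. Over all gene names 36.9% were higher, with a median of -0.11. Channels and neurotransmitter receptors were 7 members with 243 peaks, 0 of them called, and 4 of the 7 gene means were higher in KO. GTPase regulators, kinases and phosphatases were 6 members with 204 peaks, 0 of them called, and 5 of 6 were higher in KO. Cytoskeleton and matrix genes (*Lama1*, *Nav3*, *Sgcd* and *Sgcz*) had 172 peaks with 0 called, and all 4 were higher in KO, by 0.10 to 0.19. *Rbfox1* was the only member on the list of transcription and chromatin regulators, whose 75 other genes had 77 of 253 peaks called. These other genes include *Tcf4* and *Cdyl2*, left out by name, and *Tshz2*, with 19, 16 and 9 called rises. Of the 75 gene means 31 were higher in KO, with a median of -0.05.

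Common fragile site genes, very long genes where chromosomes break under replication stress, included 9 members besides the left-out *Wwox*. They had 605 peaks with 1 called, in *Csmd1* (0.165%, against 1.66% of all peaks). Of the 9 gene means 6 were higher in KO, where 81.1% of the members and 36.9% of all gene names were. *Fhit*, the classic fragile site gene, had a difference of -0.15 ± 0.18 with 27 peaks over 1612 kb, while *Large*, another, had 0.17 ± 0.22. These examples were chosen after their values were seen. *Wwox*, left out by the rule, had 42 of 70 peaks called and a difference of 1.24. Tandem gene families held 3 members (*Pcdhac1*, *Skint5* and *Skint6*) with 69 peaks and 0 called. No gene on the list of H3K9me3 machinery was a member. The lists took in 65 of the 111 members, and 46 were on none.

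Members shared features that the rule did not use directly. Gene models were found for 110 of the 111, of which 106 are protein coding and 4 are lincRNAs, and 12 have another name in GENCODE vM21. Median gene length was 566 kb (76.9 to 2961 kb), and 65 genes were longer than 500 kb, against a median of 44.9 kb over all gene names. Peak number and gene length had a Spearman correlation of 0.44 and a Pearson correlation of 0.45 across these 110 genes. Peaks took up a median of 8.27% of a member, from 0.927% of *Fgfr2* to 45.5% of *Ccdc11*, and 4146 of the 4571 peaks (90.7%) lay inside introns. The members were spread over all 19 autosomes, with 12 genes each on chromosomes 1 and 8. The Spearman correlation between the number of peaks and KO minus WT was 0.11 over the 111 members.

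Member peaks were low in repeats. Their median masked share was 22.5%, against 37.8% over all peaks, with a GC content of 40.7% against 41.9%, and the median width was 1050 bp in both. Where at most 10% of a peak was masked, the median log2 fold change was 0.09 for 759 member peaks and 0.09 for 3771 other peaks. With 10% to 30% masked it was 0.11 and 0.02, with 30% to 60% masked 0.05 and -0.04, and above 60% 0.05 and -0.02. The part of repeat content in the difference was not tested. Member peaks of every GC class had a median of 0.07 to 0.10, against -0.04 to 0.04 in other peaks. The 55 member peaks wider than 5000 bp had a median of -0.07, against -0.05 for 908 others of that width.

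**Figure D5:**
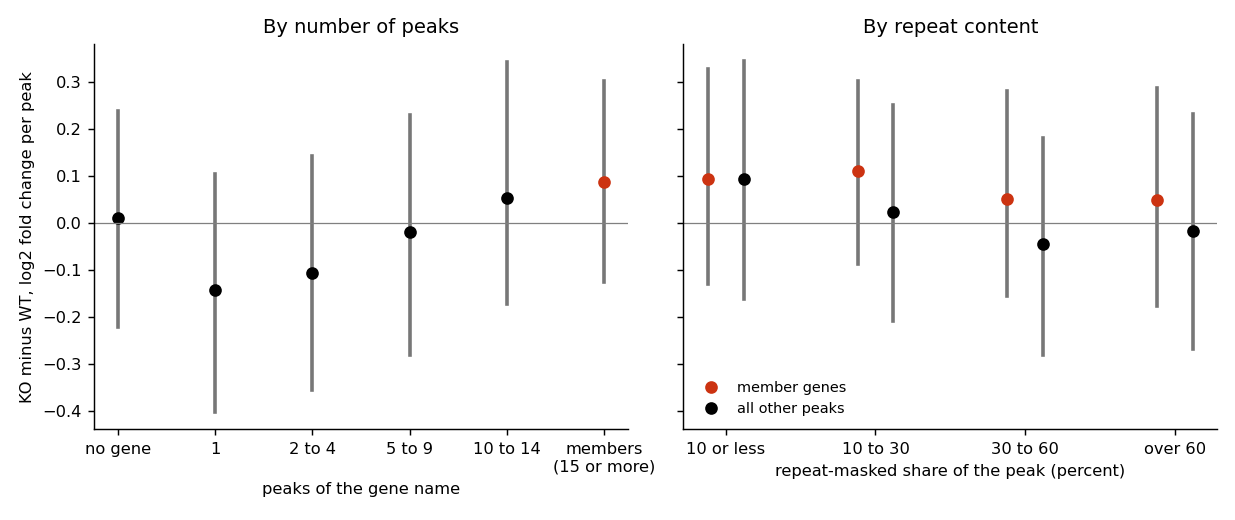
Median (points) and interquartile range (bars) of the log2 fold change of KO over WT per peak (y axis). Left, peaks with no gene within 5 kb, then peaks of gene names with 1, 2 to 4, 5 to 9 and 10 to 14 peaks, and of the member genes, with medians from -0.14 for single-peak names to 0.09 for members. Right, member and other peaks by the repeat-masked share of the peak, with equal medians of 0.09 in the class with the fewest repeats.

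The difference varied with the number of peaks at a gene. Median log2 fold changes were -0.14 over 3348 peaks that were the only one of their gene name, -0.11 where a name had 2 to 4 peaks, -0.02 with 5 to 9, 0.05 with 10 to 14 and 0.09 in the members, and 0.01 over the 38081 peaks with no gene within 5 kb. The interquartile ranges of these classes overlapped throughout. Gene names outside the members that are longer than 500 kb (136 names, a median of 4 peaks) had a median difference of -0.08 with 37.5% higher in KO. Members of that length (65, a median of 40 peaks) had 0.07 with 78.5% higher. Members of 50 to 200 kb (13) had 0.10 with 84.6% higher, against -0.16 and 31.3% for 1739 other names of that length. The part of gene length in the difference was not tested. KO and WT input reads differed by a median of -0.12 on the log2 scale at member peaks and -0.09 at all peaks. Taking the input off each ChIP value moved the member median to 0.20 and the median over all peaks to 0.09. Each input is 1 library, so its part in the difference was not tested.

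At the threshold of the rule, *Tshz2* stood apart from its neighbours. The members with 15 peaks were *Adarb2*, *Odz2*, *Opcml*, *Trps1*, *Sema3e* and *Pcdhac1*, with differences of 0.04 to 0.25 and 0 called peaks. The genes with 14 peaks that the names allowed were *Acn9*, *Cntnap3*, *Fam172a*, *Grm5* and *Ndst4*, with differences of -0.12 to 0.10 and 0 called peaks, and *Tshz2*, a zinc finger regulator of development, with 1.21 and 9 called rises. Lowering the minimum to 10 peaks would take in 60 genes with 687 peaks and raise the called rises from 8 to 71, while the called falls would stay at 7. *Tshz2* was not alone in this range. Over all 69 gene names with 10 to 14 peaks, 63 of 793 peaks were called rises (7.94%, against 0.796% of all peaks). Of these names 14 had a called peak, and 6 gene means were called, all upwards (8.7%, against 3.86% of all gene names called either way).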

How the data were processed

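H3K9me3 ChIP-seq of colon crypts was compared between 3 KO and 3 WT libraries, with 1 input per genotype; groups and replicate numbers came from the sample titles. The authors trimmed the reads with Trim Galore, mapped them to GRCm38 with Bowtie2 2.3.2, kept mapping qualities of at least 20, removed duplicates and called peaks once on all ChIP libraries with MACS in SeqMonk (fragment size 300, p-value threshold 1e-05). For ChIP, the authors deposited a log2 read count for each peak, floored at a small value and matched to a distribution common to the libraries. For input, they deposited the log2 of unscaled reads. The authors gave each peak the closest gene within 5 kb. Their table of changed peaks, with their p-values and fold changes, was not used. Depth was read from the steps of the values, 14 to 20 reads per peak and library as the median, and covers counting error only. The labels give single reads of 50 bp and the methods paired reads, which was not settled.

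KO and WT were compared with limma 3.58.1 in R 4.3.3, two-sided, on genotype alone, with a variance prior following the level, over all 53761 peaks and over the mean log2 value of 5543 gene names, with Benjamini-Hochberg adjustment and a threshold of 0.05. The deposited table holds log2 values and no raw ChIP counts, so no count model was run. The fit was tested on simulated data. Gene models came from GENCODE vM21, and sequence, GC and repeat mask from the GRCm38 reference. Python 3.11.15, pandas 2.3.3, numpy 2.4.6, scipy 1.17.1 and matplotlib 3.10.9 were used otherwise.

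The members, the gene lists and the alternatives were chosen with earlier results of these data known. Named are the 10 members with the most peaks, every member with a called peak, the 5 highest and 5 lowest gene-mean differences, the largest called peaks, and the genes with 15 and 14 peaks; others are named by count or list. The replicate number was a block only in an alternative. Other alternatives changed the scaling, the filter, the variance prior, the libraries used, the input, the threshold and the rule for members, and GC centring, the peak-number prior and overlap with GENCODE vM21 were added after the data were seen.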

Additional observations from a re-analysis of the deposited data

How the results depend on the processing

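With the 8 rises, 7 falls, median of 0.09 and 0 genes called by gene mean as reference, further scaling (centred libraries, quantile normalization, or centring within 20 bins of GC content, chosen after seeing the data) gave 8 or 9 rises, 6 falls and medians of 0.08 to 0.09. The median over all peaks stayed within 0.01 of 0 under these scalings. A variance prior without a trend left 1 rise and 0 falls, and 0.236% of all peaks called (127, of which 112 were rises). An adjusted p under 0.01 left 4 rises and 4 falls. Keeping peaks of mean log2 value 4 or more gave 1 called gene, Ccdc11. Taking the single input of the genotype off each ChIP value called 928 rises, 434 falls and 6 genes with a median of 0.20, because the same input difference then enters all 3 libraries without adding to their spread. That setting called 29.5% of all peaks (15873, of which 9361 were rises) and moved the median over all peaks to 0.09. Leaving out each replicate gave 3 to 9 rises, 3 to 9 falls, medians of 0.06 to 0.12 and 0 genes. A minimum of 10 peaks per gene gave 71 rises and 6 genes, a minimum of 20 peaks 1 fall, and putting back the 6 genes 175 rises and 6 genes. Summing linear values called 5 genes, and a variance prior trended on peak number, chosen after seeing the data, called 1. Over all gene names the latter called 1.82%, and the share for the sum is not given. With the replicate number as a block there were 8 rises, 6 falls, 0 called genes and a median of 0.09; libraries of the same number did not deviate together (r = -0.00126, 0.0191 and 0.0164 across peaks), so they share a number only. In 190 refits of the 15 called peaks, 133 stayed called and 57 did not. No direction reversed, but many of these refits could not have reversed one, so this is no evidence of stability. At each of the 15 peaks every KO library lay on the same side of every WT library, so leaving out a library could not change the sign. The variance prior without a trend, the replicate block and the filter on the mean log2 value left each difference unchanged. Depth limits small differences at narrow peaks, with 14 to 19 reads per member peak and library.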
